A study of Mus musculus with 20 samples.

Results

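Non-productive TCRβ rearrangements were the clones whose CDR3, the junction of the V, D and J segments that a clone carries, was out of frame or held a stop codon in the deposited translation. There were 7708 of them among the 266600 TCRβ clones of 17 mice, which was 2.89% of clones. Out of frame were 7316 clones, and 392 clones kept the frame but held a stop codon. The other 258892 clones, in frame and without a stop in the CDR3, are called in-frame clones.

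The clones came from RNA of TCRβ-high CD4-CD8+ T cells sorted from male C57BL/6 mice of 9 to 12 weeks, at 1000000 cells per mouse and a purity over 98%. The labels name lymph nodes as the tissue, whereas the protocol names lymph nodes together with spleens. WT mice (n = 4 used here) carried both proteasome subunit genes, β5i-KO mice (n = 5) lacked the immunoproteasome subunit β5i encoded by Psmb8, β5t-KO mice (n = 4) lacked the thymoproteasome subunit β5t encoded by Psmb11, and BIT mice (n = 4) carried the Psmb11 coding sequence in place of that of Psmb8 on both alleles, so that β5t was made where β5i normally is. One line of BIT mice was generally used in the study. WT mouse 5, β5t-KO mouse 5 and BIT mouse 3 were left out, with 1, 12 and 440 TCRβ clones. Size alone does not separate BIT 3 from β5t-KO 2, which was kept with 421 clones, and BIT 3 was therefore also included as an alternative. TCR libraries hold no Psmb8 or Psmb11 transcripts, so the genotypes could not be checked in these files. The libraries held 421 to 42399 TCRβ clones and 8119 to 146469 unique molecules each, with 9.68 to 184 reads per molecule. The 3 libraries with under 2500 clones were WT 1, β5t-KO 2 and β5t-KO 4.

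A TCRβ chain is made in the thymus when a D segment is first joined to a J segment and a V segment is then joined to both, with bases trimmed from the ends and others added by terminal transferase. Most random joins fail to keep the reading frame, and a cell whose first allele failed can go on to rearrange the other allele, so that a mature T cell often carries a failed rearrangement beside the working one. Transcripts of failed rearrangements are lowered in the cell by nonsense-mediated decay, the pathway that degrades mRNA with a premature stop. Because no receptor is made from a failed rearrangement, it is not itself selected in the thymus, and such rearrangements are often used as a view of recombination before selection.

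The 3 non-productive rearrangements that were found in the most mice are shown first because no other was found in more than 1 mouse. Each was found in 2 mice, and capitals mark the bases between the last V base and the first J base. The first was held by β5i-KO 3 and BIT 2, the next by β5i-KO 1 and β5i-KO 3, and the last, which has no base between V and J and is therefore all in lower case, by β5i-KO 1 and BIT 1.
TRBV4/TRBJ2-5, out of frame: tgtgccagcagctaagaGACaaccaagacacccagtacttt
TRBV24/TRBJ1-3, out of frame: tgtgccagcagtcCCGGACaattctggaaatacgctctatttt
TRBV4/TRBJ2-5, in frame with a stop codon: tgtgccagcagctaagacacccagtacttt
These had 1 to 4 molecules per mouse. They were all the sharing there was among 7705 distinct non-productive rearrangements (0.0389%), whereas 9596 of 246043 in-frame rearrangements (3.9%) were found in 2 or more mice and the most widespread in 11 mice. Because the classes differ in size, sharing was also counted per 1000000 pairs of clonotypes from different mice, where non-productive rearrangements gave 0.112 (exact 95% binomial interval 0.0231 to 0.328) and in-frame rearrangements 0.599 (0.590 to 0.607). Such intervals cover counting error only, and clonotype pairs within 1 mouse share their source.

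The most abundant non-productive clone of each genotype is shown next, with capitals again marking the bases between V and J.
WT 3, TRBV31/TRBJ1-4: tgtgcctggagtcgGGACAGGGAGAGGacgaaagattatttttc
β5i-KO 2, TRBV24/TRBJ2-5: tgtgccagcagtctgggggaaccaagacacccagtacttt
β5t-KO 2, TRBV17/TRBJ1-6: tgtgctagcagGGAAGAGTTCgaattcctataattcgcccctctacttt
BIT 1, TRBV13-2/TRBJ1-4: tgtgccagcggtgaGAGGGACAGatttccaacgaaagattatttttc
All 4 were out of frame. They held 40 molecules in WT 3, 33 molecules in β5i-KO 2, 104 molecules in β5t-KO 2 and 18 molecules in BIT 1. The β5t-KO 2 clone ranked number 2 among all 421 TCRβ clones of its mouse, the β5i-KO 2 clone number 3 of 5674, the WT 3 clone number 7 of 15864 and the BIT 1 clone number 64 of 37054. None of them had a larger in-frame clone within 1 base change in the same mouse, V and J.

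Non-productive clones were 3.52%, 3.40%, 2.55% and 3.01% of TCRβ clones in WT 1 to 4. In β5i-KO 1 to 5 they were 3.16%, 4.25%, 2.40%, 2.38% and 3.64%. In β5t-KO 1 to 4 they were 3.65%, 6.65%, 2.49% and 5.49%, and in BIT 1, 2, 4 and 5 they were 2.71%, 3.18%, 2.92% and 2.76%. Among these 17 mice the BIT mice lay closest together and the β5t-KO mice widest apart, and the 4 genotypes overlapped. This order depends on BIT 3, which had 6.59% and would widen the BIT range to 2.71% to 6.59%. Means were 3.12% ± 0.442 (SD, n = 4) for WT, 3.17% ± 0.807 (n = 5) for β5i-KO, 4.57% ± 1.86 (n = 4) for β5t-KO and 2.89% ± 0.213 (n = 4) for BIT.

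The share of clones that were non-productive did not pass the test across genotypes (between-genotype share of the variance 0.342, exact permutation p = 0.108, adjusted p = 0.473 over 5 measures). The difference from WT was 1.45 percentage points for β5t-KO (exact permutation p = 0.229), 0.0450 points for β5i-KO (p = 0.913) and -0.228 points for BIT (p = 0.371), with adjusted p-values of 0.457, 0.913 and 0.557 over 6 pairwise tests. The difference for β5t-KO was 0.756 points without β5t-KO 2, 0.0841 points without the 3 smallest libraries, 0.737 points with at least 2 molecules per clone and 0.781 points without clones that lay 1 base change from a larger in-frame clone. With 4 mice against 4, the smallest p such a test can give is 0.0286. The call depended on individual mice, since without β5t-KO 3 the between-genotype share of the variance was 0.601 (exact permutation p = 0.00930, adjusted p = 0.0465), and without the 3 smallest libraries it was 0.0446 (exact permutation p = 0.929).

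**Figure D1:**
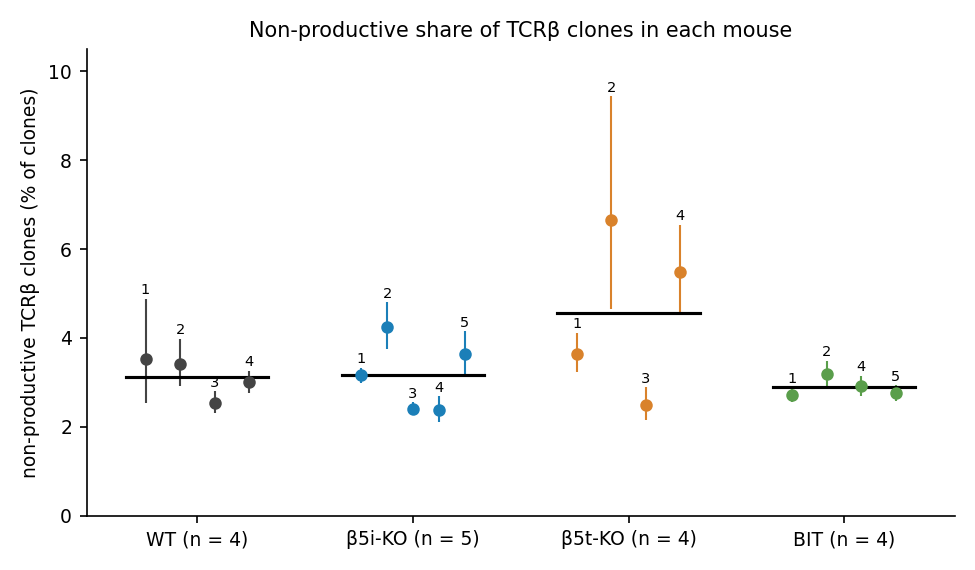
Non-productive TCRβ clones as a percentage of all TCRβ clones of a mouse (vertical axis) by genotype, with 1 point per mouse, its replicate number, its Wilson 95% interval and a line at each genotype's mean. The interval is widest for β5t-KO 2, which had 421 clones and a share of 6.65% (4.64% to 9.44%), and the BIT mice sit between 2.71% and 3.18%.

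In libraries from bulk RNA, fewer cells with a rearrangement and less RNA of it per cell cannot be told apart. By molecules the non-productive share was lower, 2.47% of all TCRβ molecules when the mice were pooled, and it ranged from 1.83% in WT 3 to 5.54% in β5t-KO 2. It did not pass the test across genotypes (between-genotype share of the variance 0.134, exact permutation p = 0.645, adjusted p = 0.645). In each mouse 85.3% to 97.6% of the non-productive clones were out of frame, and this share did not pass the test across genotypes (between-genotype share of the variance 0.243, exact permutation p = 0.284, adjusted p = 0.473). Among the out-of-frame clones, 49.3% had a CDR3 length 1 base over a multiple of 3 and 50.7% were 2 bases over, so both wrong frames were seen nearly equally.

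The TCRα chain of the same libraries gives a reference, because α rearranges on both alleles with little exclusion. Non-productive TCRα clones were 7.96% to 11% of TCRα clones (median 9.37%), against 2.38% to 6.65% (median 3.16%) for TCRβ. The α share was higher in 17 of 17 mice, by 6.06 ± 1.49 percentage points (SD, n = 17, exact sign-flip p = 1.53e-05, the smallest that 17 mice can give, adjusted p = 1.91e-05 over the 5 comparisons within mice).

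Non-productive clones held fewer molecules each than in-frame clones of the same mouse. Their mean was 1.41 molecules per clone in the lowest mouse (β5i-KO 4), 3.56 in the median mouse and 16.1 in the highest (β5t-KO 2), and that of in-frame clones was 1.45, 4.89 and 19.5. The mean was lower for non-productive clones in 17 of 17 mice, although in WT 1 and β5i-KO 4 by very little. The mean log2 ratio was -0.30 ± 0.26 (SD, n = 17, exact sign-flip p = 1.53e-05, adjusted p = 1.91e-05), or 0.814-fold. In the same direction, 22.8% to 70.3% of non-productive clones were seen as 1 molecule only (median 34.8%) against 7.44% to 69.8% of in-frame clones (median 14.8%), a difference of 15.3 ± 10.2 percentage points that was positive in 17 of 17 mice (exact sign-flip p = 1.53e-05, adjusted p = 1.91e-05).

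Part of the small non-productive clones lay beside larger in-frame clones. A non-productive clone was counted as a near neighbour when an in-frame clone of the same mouse, V and J with more molecules differed from it by 1 inserted, deleted or substituted base. There were 1062 of these, 13.8% of the non-productive clones, and 85.8% of them had 1 molecule. Of the near neighbours 784 lacked 1 base, 162 had 1 base too many and 116 had 1 base substituted. The pair with the most abundant in-frame clone is shown for a deletion and for a substitution, chosen after the values were seen, and capitals mark the base that was lost or changed.
WT 3, TRBV12-1/TRBJ2-7, in-frame: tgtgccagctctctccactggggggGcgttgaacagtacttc
WT 3, TRBV12-1/TRBJ2-7, non-productive: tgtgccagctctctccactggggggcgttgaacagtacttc
β5t-KO 4, TRBV29/TRBJ2-1, in-frame: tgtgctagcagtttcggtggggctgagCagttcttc
β5t-KO 4, TRBV29/TRBJ2-1, non-productive: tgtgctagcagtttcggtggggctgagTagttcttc
The in-frame clone of the TRBV12-1 pair had 187 molecules and its non-productive neighbour, which is shorter by a base in a run of G, had 2 molecules. The in-frame clone of the TRBV29 pair had 84 molecules and the neighbour, in which the substitution makes the stop codon TAG, had 1 molecule.

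The share of near neighbours depended steeply on clone size. At 1 molecule 32.6% of 2792 non-productive clones were near neighbours, at 2 to 5 molecules 3.89% of 3673 clones, and at 6 or more molecules 0.644% of 1243 clones. In-frame clones, which were compared by substitutions only because an insertion or deletion would shift the frame, were near neighbours of a larger in-frame clone in 9.40%, 4.05% and 1.47% of cases at these sizes. Among mice the share of near neighbours ran from 0.407% of the non-productive clones in β5i-KO 4, which had 1.45 molecules per in-frame clone, to 49.1% in β5t-KO 4, which had 17.7.

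Without the near neighbours the mean log2 ratio of molecules per clone was -0.05 (exact sign-flip p = 0.259), and with near neighbours left out of both classes, a choice made after seeing the data, it was -0.09 (p = 0.0598). Counting only clones with at least 2 molecules gave -0.06 (exact sign-flip p = 0.235). A near neighbour is smaller than its partner by definition, so leaving it out raises the mean. The excess of clones with 1 molecule was 3.44 percentage points without near neighbours (exact sign-flip p = 0.000443).

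**Figure D2:**
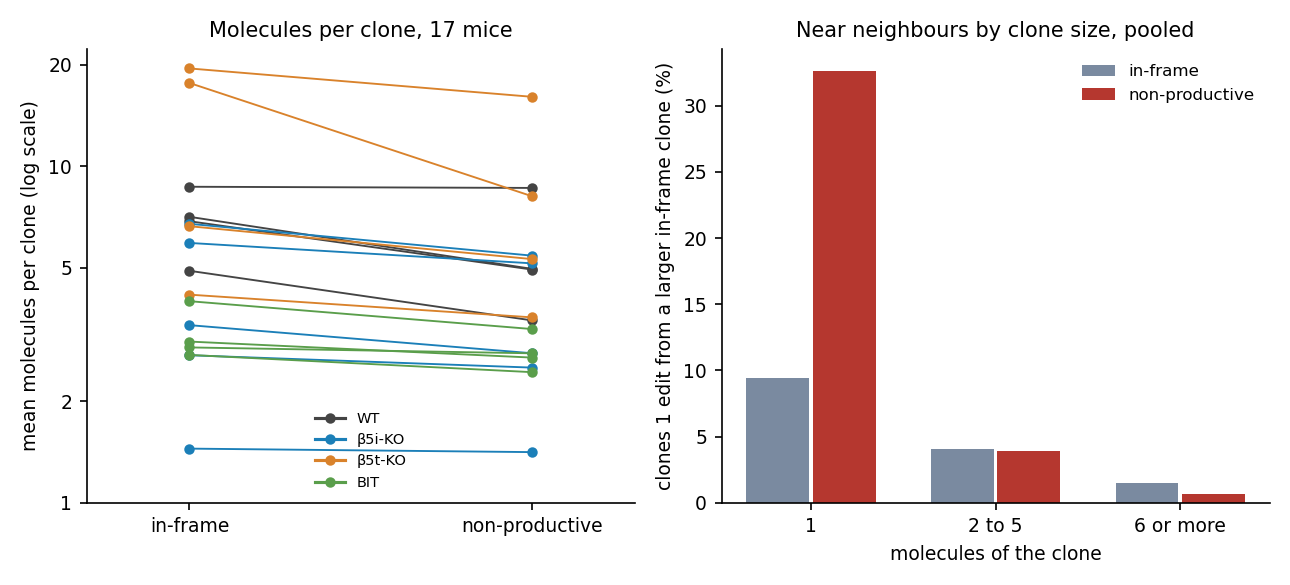
Left, mean molecules per clone on a log scale for in-frame and non-productive TCRβ clones, with 1 line per mouse coloured by genotype, and the line falls in all 17 mice. Right, the percentage of clones that lay 1 edit from a larger in-frame clone, for clones of 1, 2 to 5 and 6 or more molecules pooled over 17 mice, which was 32.6% for non-productive clones of 1 molecule and 9.40% for in-frame ones. The bars are unlike measures, because insertions and deletions counted for non-productive clones and only substitutions for in-frame ones.

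The log2 ratio of molecules per clone between non-productive and in-frame clones was -0.37 ± 0.24 (SD, n = 4) in WT, -0.19 ± 0.11 (n = 5) in β5i-KO, -0.49 ± 0.42 (n = 4) in β5t-KO and -0.17 ± 0.09 (n = 4) in BIT mice. It did not pass the test across genotypes (between-genotype share of the variance 0.272, exact permutation p = 0.206, adjusted p = 0.473). Without the 3 smallest libraries, a choice made after seeing the data, it did (0.734, exact permutation p = 0.00376, adjusted p = 0.0188), with WT 2, 3 and 4 at -0.51, -0.49 and -0.48. The molecules per in-frame clone were 7.07, 4.89 and 6.86 in those WT mice. BIT mice had 2.75 to 3.97 molecules per in-frame clone and log2 ratios of -0.27 to -0.06. In β5i-KO 1, 3 and 4 the molecules were 2.74, 3.37 and 1.45 and the log2 ratios -0.12, -0.28 and -0.03. In β5i-KO 2, β5i-KO 5 and β5t-KO 1 they were 6.74, 5.92 and 6.63, with log2 ratios of -0.31, -0.20 and -0.32. For β5t-KO 3 they were 4.15 and -0.22. Without near neighbours the test across genotypes over all 17 mice gave an exact permutation p of 0.995. The part of depth in this result was not tested.

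The CDR3 of non-productive clones was longer. Its mean was 42.0 nt in the lowest, 42.6 nt in the median and 44.6 nt in the highest mouse, against 41.5 nt, 41.6 nt and 41.9 nt for in-frame clones. The groups did not overlap, since the lowest mouse among the non-productive values lay above the highest among the in-frame values. The difference of 0.995 ± 0.577 nt was positive in 17 of 17 mice (SD, n = 17, exact sign-flip p = 1.53e-05, adjusted p = 1.91e-05). The spread of lengths within a mouse was also wider, with an SD of 5.12 nt against 4.48 nt on average, a difference of 0.645 ± 0.743 nt that was positive in 15 of 17 mice (exact sign-flip p = 0.00323, adjusted p = 0.00323).

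The longest out-of-frame CDR3 had 115 nt and the longest in-frame CDR3 78 nt. The mean length of the non-productive clones did not pass the test across genotypes (between-genotype share of the variance 0.145, exact permutation p = 0.626, adjusted p = 0.645).

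**Figure D3:**
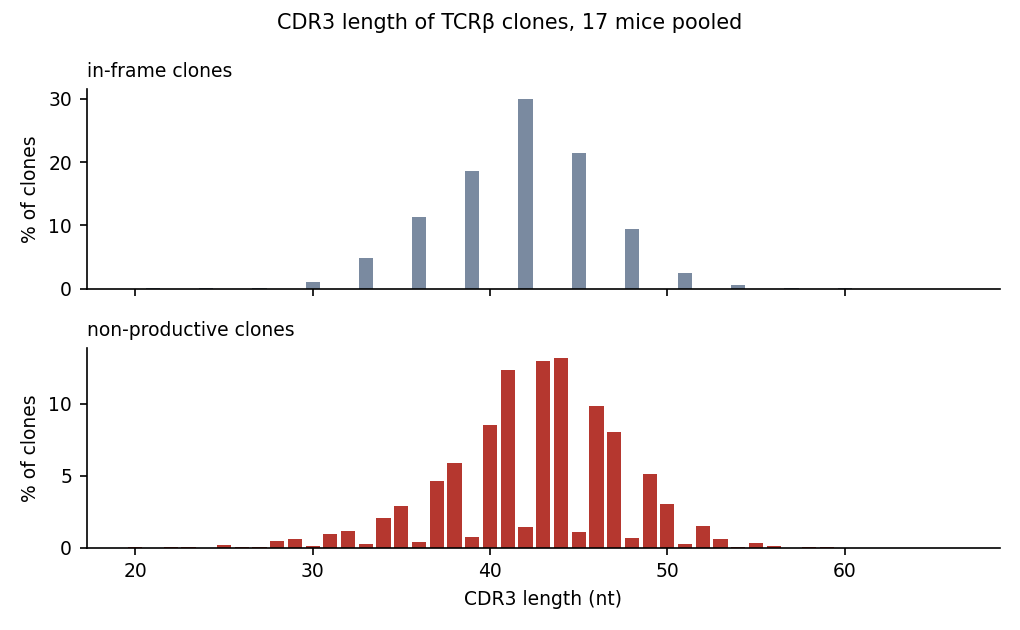
CDR3 length in nt (horizontal axis) against the percentage of clones of the class at that length, pooled over 17 mice, for in-frame clones (top, only multiples of 3) and non-productive clones (bottom). In-frame clones peak at 42 nt with 30.1% of clones, whereas the largest non-productive classes are 43 nt with 12.9% and 44 nt with 13.2%, and the low bars at multiples of 3 are the clones with a stop codon.

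The parts of the junction were then compared, in 6 measures chosen after the lengths were seen. Between the last V base and the first J base non-productive clones had 10.15 ± 0.674 bases (mean of mouse means ± SD, n = 17) and in-frame clones 9.24 ± 0.137, higher in 17 of 17 mice (exact sign-flip p = 1.53e-05, adjusted p = 4.58e-05). In clones with an identified D segment the bases added on its sides, which come from terminal transferase and from palindromic ends, numbered 2.97 ± 0.235 and 2.46 ± 0.0841, again higher in 17 of 17 mice (exact sign-flip p = 1.53e-05, adjusted p = 4.58e-05). Junctions with no added base made up 14.3% ± 2.46 of such non-productive clones and 18.8% ± 2.41 of in-frame clones (exact sign-flip p = 3.05e-05, adjusted p = 6.10e-05). From the V end 2.37 ± 0.397 bases had been removed in non-productive clones and 2.65 ± 0.109 in in-frame clones, and the difference was -0.272 bases (exact sign-flip p = 0.00218, adjusted p = 0.00262). The rule sets part of this difference, because the germline end of TRBV4 holds a stop codon that its in-frame clones must have lost. Without TRBV4 the pooled values were 2.33 and 2.51 bases, and that difference was not tested. From the J end 2.83 ± 0.226 and 2.79 ± 0.0417 bases had been removed, a difference of 0.0397 ± 0.241 bases (exact sign-flip p = 0.509). A D segment was identified in 79.3% ± 3.86 of non-productive and 75.5% ± 1.16 of in-frame clones (exact sign-flip p = 0.000137, adjusted p = 0.000206).

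The use of V genes was compared by counting each distinct clonotype (V, J and CDR3 bases) once, as a share of the clonotypes of its class in each mouse. With edgeR on 24 V genes and the mouse as a block, 15 genes were called (62.5%), of which 6 were higher (25% of the genes tested) and 9 lower (37.5%) among non-productive clonotypes. The 6 higher genes together made up 27.2% to 48.4% of the non-productive clonotypes of a mouse (median 39.4%) and 8.87% to 11% of the in-frame ones (median 9.98%). TRBV22 among them passed the count filter only through its non-productive clonotypes, and for TRBV4 the rule itself sets part of the rise, as described below. Shares of one class sum to a whole, so a rise of some genes lowers the others, and with TMM scaling 7 genes were higher and 10 lower. All positions below are those of GENCODE vM39 on GRCm39, where the V genes named here except TRBV22 and TRBV25, with 1 exon each, have 2 exons and the CDR3 begins near the end of the last of them.

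TRBV24 (chr6:41195025-41195491, plus strand), annotated as a pseudogene, differed most. It made up 6.14% in the lowest, 8.4% in the median and 17.4% in the highest mouse of the non-productive clonotypes, against 0%, 0.0671% and 0.322% of the in-frame clonotypes, and the values of the 17 mice did not overlap between classes. The log2 fold change was 7.06 ± 0.18 (SE; edgeR adjusted p = 4.11e-29). Of all its clonotypes 80.4% were non-productive (70% to 91.7% in the 14 mice with at least 10), while the figure over all V genes was 2.89% of clones. The reading frame of its V exon, followed back from the conserved cysteine that opens the CDR3, held 1 stop codon before the CDR3 in GRCm39, which the rule on the CDR3 does not read. Its 678 out-of-frame clones had 4.60 molecules each and its 170 in-frame clones 4.64, pooled over mice, and 1 molecule only was seen for 21.1% and 20% of them. The germline end of TRBV24 and its largest non-productive clone, an out-of-frame TRBV24/TRBJ2-2 clone of 57 molecules in β5t-KO 4, are shown to let the untrimmed V end be seen, with the bases between V and J in capitals.
TRBV24 germline end: tgtgccagcagtctgta
TRBV24/TRBJ2-2 clone: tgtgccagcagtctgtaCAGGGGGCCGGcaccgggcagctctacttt

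TRBV22 (chr6:41189178-41189468, plus strand), the other annotated pseudogene that was tested, had 41 non-productive and 13 in-frame clonotypes over all mice (log2 fold change 6.30 ± 0.40, edgeR adjusted p = 1.47e-15) and likewise 1 stop codon in its V exon before the CDR3. The count filter summed both classes, and with 13 in-frame clonotypes in 8 mice TRBV22 passed it only through the non-productive class. Its fold change and p-value are therefore no independent evidence. TRBV21 (chr6:41179484-41179976, plus strand) is annotated as a gene, and had 33 and 72 (log2 fold change 3.79 ± 0.36, edgeR adjusted p = 1.67e-11), with no stop in the V exon. Both were rare, at 0.390% and 0.304% of non-productive clonotypes on average, and TRBV21 was higher in 9 and lower in 5 of 17 mice. The other V genes tested had no stop in the V exon before the CDR3 by the same reading. Annotated V pseudogenes together gave 9.57% of the non-productive clones and 0.0711% of the in-frame clones, and the last of the 3 that were seen, TRBV25, gave 1 in-frame clone of 1 molecule.

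TRBV31 (chr6:41534627-41535386, minus strand) lies downstream of the constant genes and joins by inversion. It made up 3.57%, 13.9% and 20.5% of the non-productive clonotypes in the lowest, median and highest mouse, against 2.05%, 2.71% and 3.26% of the in-frame ones, and was higher in 17 of 17 mice (log2 fold change 2.39 ± 0.10, edgeR adjusted p = 9.37e-23). With 1115 clonotypes it was the most frequent V gene among non-productive clonotypes, and 13.9% of all TRBV31 clonotypes were non-productive. TRBV5 (chr6:41039266-41039737, plus strand) was also higher in 17 of 17 mice, at 1.17%, 4.28% and 7.14% against 0.326%, 0.665% and 2.45% (log2 fold change 2.07 ± 0.18, edgeR adjusted p = 6.30e-13).

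TRBV4 (chr6:41036328-41036820, plus strand) rose to 11.8% from 6.19% in the median mouse (log2 fold change 1.00 ± 0.09, edgeR adjusted p = 4.79e-12) and was higher in 16 of 17 mice. The rule itself sets part of this rise, because a TRBV4 join that keeps a germline stop codon counts as non-productive even in frame. Its fold change and p-value are therefore no independent evidence. The germline end of TRBV4 is shown because it brings this stop codon into the CDR3, marked in capitals, together with the largest stop clone that kept it, a TRBV4/TRBJ1-1 clone of 26 molecules in β5t-KO 1. The germline end was read from GRCm39, from the cysteine codon to the recombination signal.
TRBV4 germline end: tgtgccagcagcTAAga
TRBV4 stop clone: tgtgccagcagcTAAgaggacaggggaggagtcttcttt
Codon 5 of the CDR3 is therefore TAA unless trimming removes it, and no other V gene whose germline end was read held an in-frame stop there. TRBV4 gave 165 of the 392 clones with a stop codon (42.1%), and in 134 of these the first stop was the germline TAA. The germline codon was also kept in 39.5% of the 770 out-of-frame TRBV4 clones and in none of the 14793 in-frame ones, as the rule itself requires. From TRBV4 ends 3.04 bases had been removed on average in out-of-frame clones and 4.55 in in-frame clones, a gap that the rule sets in part. Without TRBV4 the V bases removed were 2.33 in non-productive and 2.51 in in-frame clones, pooled over mice, and this difference was not tested. All 3 rearrangements shared between mice used TRBV4 or TRBV24, and both of the TRBV4 ones keep the TAA.

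The remaining stop codons came from other places. Over all 392 clones the first stop was TAA in 170, TAG in 144 and TGA in 78, and it lay within the V part in 155, within the J part in 89, between V and J in 87 and across a border in 61. Near neighbours of a larger in-frame clone made up 46.3% of the 227 stop clones with other V genes and 6.67% of the TRBV4 ones.

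Lower among non-productive clonotypes were 9 V genes. TRBV29 (chr6:41248328-41248815, plus strand) made up 0%, 1.60% and 4.15% of them in the lowest, median and highest mouse against 4.71%, 5.65% and 7.89% of in-frame clonotypes, without overlap (log2 fold change -1.74 ± 0.14, edgeR adjusted p = 7.24e-14). TRBV16 (chr6:41128674-41129164, plus strand), the most frequent V gene of in-frame clonotypes, made up 2.34%, 4.21% and 14.7% against 9.56%, 12.0% and 18.2% (log2 fold change -1.52 ± 0.11, edgeR adjusted p = 1.47e-15), and was lower in 16 of 17 mice. TRBV3, TRBV13-3, TRBV17 and TRBV13-2 fell by 1.16, 1.09, 1.01 and 0.93 on the log2 scale, and TRBV14, TRBV12-2 and TRBV19 by 0.68, 0.54 and 0.43 (TRBV19, beyond the 8 genes of the naming rule, was added after its value was seen), with edgeR adjusted p-values from 1.94e-11 to 0.00193. Near neighbours were a larger part of the out-of-frame clones of TRBV16 (32.4%) and TRBV29 (31.0%) than of TRBV31 (4.84%) or TRBV24 (0.147%). For TRBV4, about as common in frame as TRBV29 (means of 6.09% and 5.91%), they were 9.48%. Such a share depends on the clone numbers of both classes. TRBV24 had only 170 in-frame clones to lie near, and TRBV29 had 113 out-of-frame clones where TRBV4 had 770. The order of the genes therefore follows in part from the V use itself and adds no separate evidence on it. Without near neighbours the same numbers of genes were higher (6) and lower (9).

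**Figure D4:**
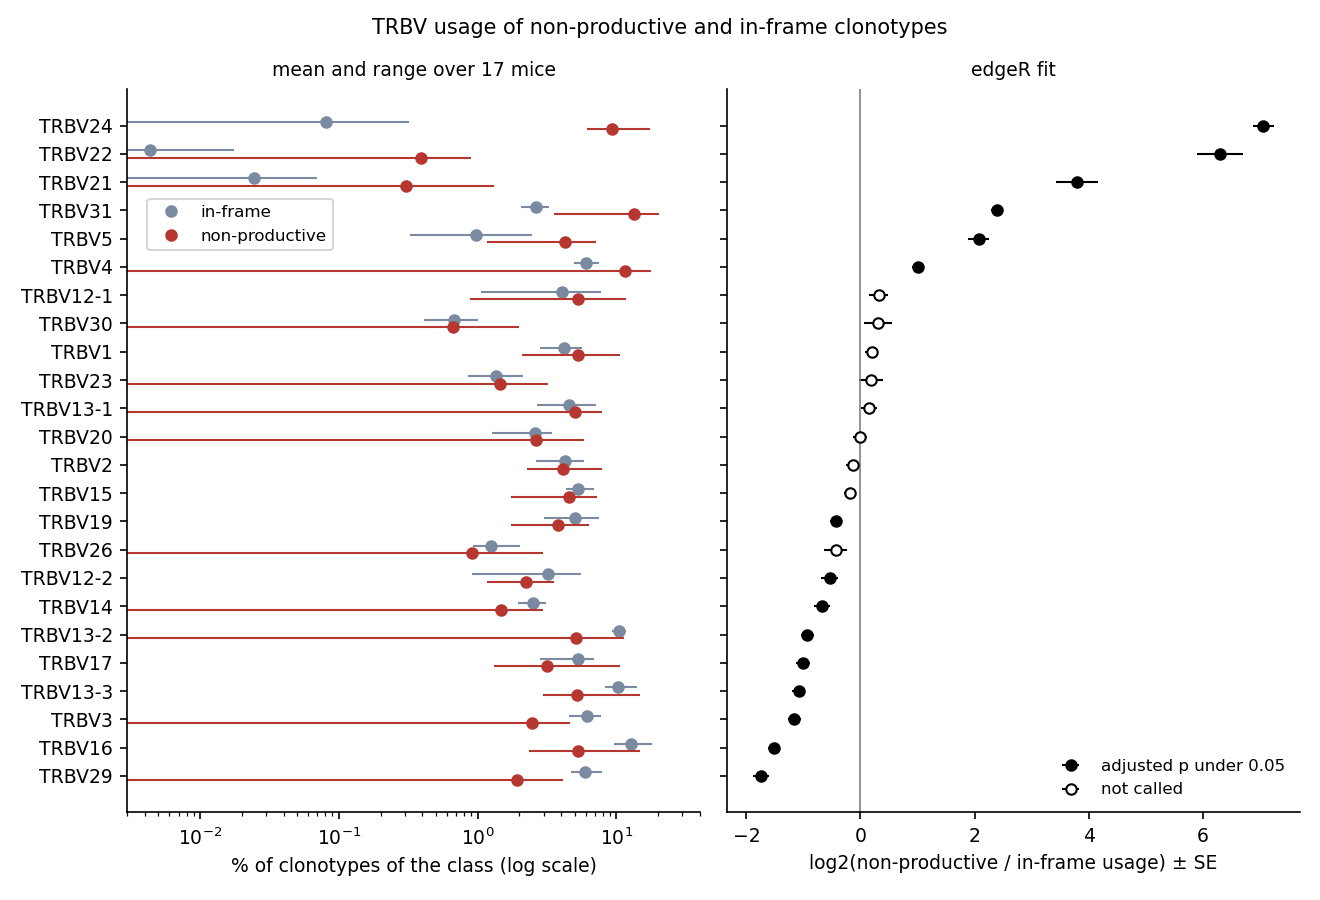
Left, the percentage of the clonotypes of a class that used each V gene (log scale), as the mean (point) and the range (line) over 17 mice for in-frame and non-productive clonotypes, where a line that runs to the left edge includes a mouse at 0. Right, the edgeR log2 ratio of non-productive to in-frame usage ± SE, filled where the adjusted p was under 0.05, which runs from 7.06 for TRBV24 to -1.74 for TRBV29.

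J genes differed far less. Of 12 J genes tested 5 were called (41.7%), 3 higher (25%) and 2 lower (16.7%) among non-productive clonotypes. TRBJ1-1, the J gene that follows the first D segment most closely, made up 0%, 6.43% and 14.7% of non-productive clonotypes in the lowest, median and highest mouse and 8.58%, 9.90% and 12.0% of in-frame clonotypes, lower in 16 of 17 mice (log2 fold change -0.60 ± 0.06, edgeR adjusted p = 2.61e-15). TRBJ2-7, the most used J gene, had a log2 fold change of -0.11 ± 0.03 (edgeR adjusted p = 0.00473). TRBJ1-6, TRBJ2-5 and TRBJ2-4 were higher, with log2 fold changes of 0.37 ± 0.12, 0.23 ± 0.04 and 0.22 ± 0.05 (edgeR adjusted p-values 0.00724, 5.18e-06 and 0.000193). The J calls rested on counting clonotypes once, and with molecules summed per gene none of the 12 was called by edgeR; with DESeq2 the call of TRBJ2-4 was lost (adjusted p = 0.0992). In addition to these 12, TRBJ1-7 and TRBJ2-6, which is annotated as a pseudogene, were each seen in 1 clone of 2 molecules, and both clones were non-productive.

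Between genotypes the difference in use between the classes was tested first, as an interaction of genotype and class. No V gene was called in the 72 tests of β5i-KO, β5t-KO and BIT against WT by edgeR (1 had an unadjusted p under 0.05, and neither DESeq2 nor TMM scaling called any), and none of the 36 tests of J genes was called (5 had an unadjusted p under 0.05, and neither DESeq2 nor TMM scaling called any). Hence the shift of V and J use between in-frame and non-productive clonotypes was not shown to differ from WT in any genotype.

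Among non-productive clonotypes alone, 23 V genes were tested in 5 comparisons, and 1 gene was called in each of 3 (4.35% of the genes tested). TRBV5 made up 2.94%, 1.99%, 2.97% and 1.78% of the non-productive clonotypes in WT 1 to 4. It made up 6.61%, 3.73%, 6.29%, 5.69% and 5.61% in β5i-KO 1 to 5 and 5.37%, 5.48%, 5.57% and 4.28% in BIT 1, 2, 4 and 5. All β5i-KO and BIT mice lay above all WT mice, while the β5t-KO mice at 4.00%, 7.14%, 1.17% and 1.75% spanned both. In the small libraries such shares rest on very few TRBV5 clonotypes. WT 1 and WT 2 held only 34 and 151 non-productive clones, and β5t-KO 2, 3 and 4 held 28, 171 and 114. The log2 fold change against WT was 1.39 ± 0.32 (SE) for β5i-KO (edgeR adjusted p = 0.000322) and 1.16 ± 0.32 for BIT (edgeR adjusted p = 0.00858), and 0.32 ± 0.50 for β5t-KO (edgeR adjusted p = 0.786). The 2 called comparisons share the WT mice, and both calls were lost without WT 4 (edgeR adjusted p = 0.0556 and 0.613) and with molecules in place of clonotypes. In-frame use of TRBV5 was 0.736% ± 0.686 (SD, n = 4) in WT, 1.20% ± 0.947 (n = 5) in β5i-KO, 0.854% ± 0.210 (n = 4) in β5t-KO and 1.07% ± 0.629 (n = 4) in BIT mice, and the groups overlapped. It was high in single libraries, at 1.75% in WT 3, 2.45% in β5i-KO 1, 1.99% in β5i-KO 3 and 1.95% in BIT 1. The other WT, β5i-KO and BIT mice had 0.326% to 1.08%.

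TRBV23 (chr6:41193007-41193460, plus strand) made up 1.37%, 0.830%, 0.884%, 0.813% and 0.467% of non-productive clonotypes in β5i-KO 1 to 5 and 3.08%, 1.75%, 1.97% and 1.58% in BIT 1, 2, 4 and 5. The BIT mice lay above the β5i-KO mice (log2 fold change 1.04 ± 0.31, edgeR adjusted p = 0.0224). WT mice at 2.94%, 1.99%, 3.22% and 1.25% spanned the BIT mice. Several of these shares rest on very few TRBV23 clonotypes. β5i-KO 2, 4 and 5 held 241, 246 and 214 non-productive clones of all V genes, and WT 1 held 34. The call was lost with DESeq2 (adjusted p = 0.244), with clones of at least 2 molecules (edgeR adjusted p = 0.284), and without BIT 1 (0.453), β5i-KO 3 (0.155) or β5i-KO 5 (0.0580). No V gene was called for β5t-KO against WT (none of 23 had an unadjusted p under 0.05 by edgeR) or for BIT against β5t-KO (4 had an unadjusted p under 0.05 by edgeR), and DESeq2 called 2 V genes over all 5 comparisons. Without β5t-KO 1 the count over the 5 comparisons was 7, and without WT 4 it was 1. For J genes none of 60 tests was called by edgeR (9 had an unadjusted p under 0.05), nor by DESeq2 (4), and the lowest edgeR adjusted p was 0.0692 for TRBJ1-2 in β5i-KO against WT. Without WT 3 there was 1 J call and without β5i-KO 3 there were 2.

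**Figure D5:**
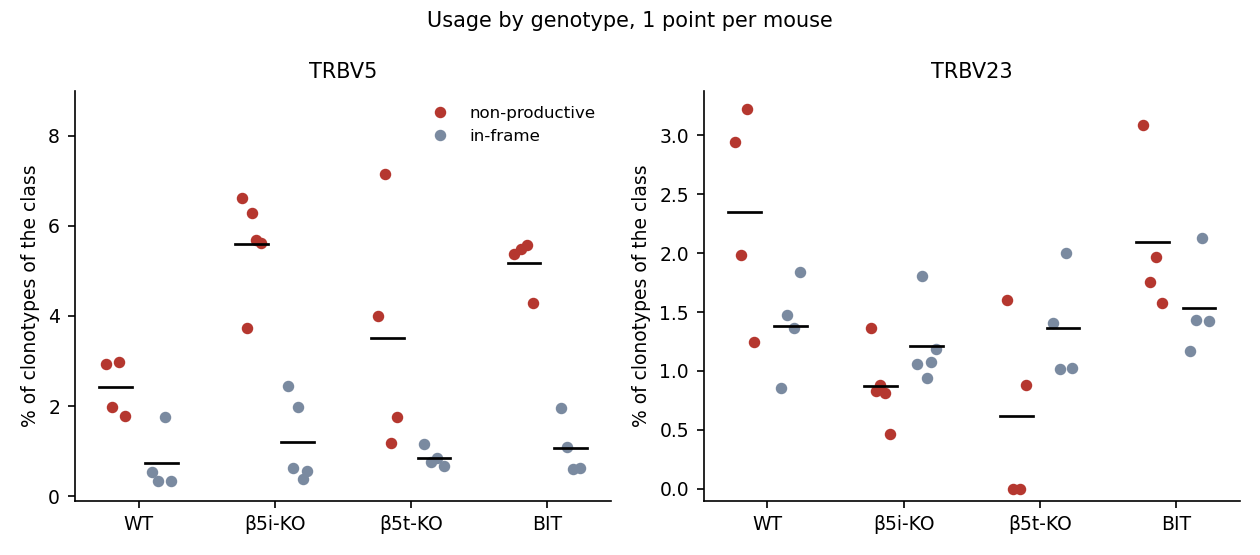
TRBV5 (left) and TRBV23 (right) as a percentage of the non-productive or the in-frame clonotypes of a mouse (vertical axis) by genotype, with 1 point per mouse and a line at each mean. For TRBV5 the non-productive values of the 5 β5i-KO and 4 BIT mice (3.73% to 6.61%) lie above those of the 4 WT mice (1.78% to 2.97%).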

How the data were processed

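RNA of CD8+ T cells was turned into TCRα and TCRβ libraries with a commercial kit (SMARTer, mouse TCR profiling). The authors assembled the reads into clones with MiXCR (version, settings and clone filters not given in the sources used here), and the submitters' processing notes name mm10. The deposited tables, 1 per mouse and chain, hold whole read counts and unique molecule counts per clone, not normalised and not pooled. The deposited fraction columns were not used. The tables hold no coordinates, so genes were placed with GENCODE vM39 on GRCm39.

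A clone was non-productive where its deposited CDR3 translation held the mark for a broken frame or a stop. V and J were the first listed genes. The members and gene lists were chosen with earlier results of these data known. Values within mice were tested by exact sign-flip tests and values across genotypes by exact permutation tests over mice, all two-sided, with Benjamini-Hochberg adjustment. V and J use was tested with edgeR 4.0.16 (quasi-likelihood, library sizes, genes with at least 5 clonotypes in at least 4 libraries). For that filter both classes were summed where classes were compared. Named genes were the called ones, at most 8 V and 4 J genes per direction, and tested pseudogenes. Per the labels, each library is an individual mouse. The study's own filter on recurrent clones was not applied. Alternatives were TMM, DESeq2 1.42.0, no filter, molecules, reads, thinning to 8119 molecules, at least 2 molecules, out-of-frame clones only, no near neighbours, merged rows, no largest clone, 1 listed V gene, BIT 3 included, a replicate block and each mouse left out. The tests were run on simulated data first. Intervals cover counting error only.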

Additional observations from a re-analysis of the deposited data

Results flagged for a closer look

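In 44 groups of 4 or 5 mice, 5 values stood apart from the rest of their group by Dixon's criterion, which chance alone meets in about 1 of 20 groups. WT 1 had a log2 ratio of molecules per clone between non-productive and in-frame clones of -0.0116, whereas the other WT mice had -0.51 to -0.48. In the same mouse the excess of non-productive clones with 1 molecule was 8.81 percentage points, against 22.9 to 23.5 in the others. WT 1 had 34 non-productive clones. In β5t-KO 4 the log2 ratio of molecules per clone was -1.12, against -0.32 to -0.22 in the other β5t-KO mice, and 49.1% of its non-productive clones were near neighbours of a larger in-frame clone. In BIT 4 the SD of CDR3 length was 1.56 nt wider for non-productive than for in-frame clones, against 0.471 to 0.624 nt in the other BIT mice. In BIT 5 TRBV5 made up 4.28% of the non-productive clonotypes, against 5.37% to 5.57% in the other BIT mice.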

How the results depend on the processing

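The differences within mice in single-molecule clones, in the mean and SD of CDR3 length and between TCRα and TCRβ kept their direction and their call under every alternative run. The log2 ratio of molecules per clone kept its direction but lost its call with at least 2 molecules per clone (-0.0597), without near neighbours (-0.0501) and without them in both classes (-0.0855). Across genotypes, the log2 ratio passed the test without the 3 libraries under 2500 clones (between-genotype share of the variance 0.734), and the share of clones passed it with mice left out in turn only without β5t-KO 3 (range 0.184 to 0.601). V calls between classes ranged from 13 to 17 under all alternatives. J calls between classes, 5 as reported, were 8 with no filter, with at least 2 molecules or without near neighbours, and 0 with molecules. Calls between genotypes for V genes, 3 as reported, were 0 with molecules and ranged from 1 to 7 with mice left out (1 without WT 4, 7 without β5t-KO 1). Those for J genes, 0 as reported, were 4 with molecules and ranged from 0 to 2 with mice left out.

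With a replicate block V calls between genotypes rose to 5, and the share of clones gave 0.551 (exact permutation p = 0.0306, adjusted p = 0.153). The replicate numbers paired nothing in the labels, and the correlation of deviations in V use between same-numbered mice averaged 0.0659, with 10 of 22 pairs over 0.1.

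Uncalled differences from WT changed sign in the following cases. The share of clones for BIT minus WT was 0.0881 points with at least 2 molecules, 0.00737 thinned, 0.325 without near neighbours, 0.345 without them in both classes and 0.512 with BIT 3. The share for β5i-KO minus WT ranged from -0.225 to 0.242 points with mice left out. The log2 ratio for β5i-KO minus WT was -0.0412 thinned, -0.0312 without near neighbours and -0.0167 without them in both classes. For BIT minus WT it was -0.0513 without near neighbours and -0.0353 without them in both classes. For β5t-KO minus WT it was 0.0152 with at least 2 molecules, 0.219 without the 3 small libraries, and -0.201 to 0.0966 with mice left out. Small libraries limit the precision, since β5t-KO 2 and WT 1 hold 28 and 34 non-productive clones.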

Other observations

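Of the 3 libraries left out, BIT 3 had 440 TCRβ clones and 7573 molecules, of which 29 clones were non-productive (6.59%), and 48.3% of those were near neighbours of a larger in-frame clone. β5t-KO 5 had 12 clones, of which 1 was non-productive, with 11 molecules. WT 5 had 1 clone, which was in frame.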
